A study of Mus musculus with 3 samples.

Results

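Sprr1a, Gap43, Basp1, Tubb3, Stmn2, Stmn4 and Flrt3 were followed as a set of axon growth and cytoskeleton effectors in single cells of the mouse dorsal root ganglion (DRG), the ganglion that houses the cell bodies of sensory neurons. The members were picked by name from genes known in axon growth, with earlier results of these data known, and are 7 of the 31053 genes in the count tables. All libraries came from wild type male C57BL/6J mice of 13 weeks, and each pooled 8 DRGs (L3 and L4 of both sides) from 2 mice. The naïve library was from mice without injury, and the other 2 libraries were taken 7 and 14 days after a spared nerve injury (SNI) of both hind legs. SNI cuts some branches of the sciatic nerve and leaves another intact, so that injured and uninjured neurons can lie in the same ganglion. With 1 library per condition, and no sham-operated library among them, a difference between conditions cannot be told apart from a difference between pools or preparations, and no test was possible. All intervals given are 95% and cover counting error only. The tissue was dissociated with enzymes and passed through a 40-micron strainer, and the loss of cells by size at that step was not measured.

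A sensory neuron whose axon is cut switches on a regeneration program in its cell body, driven in part by the transcription factors ATF3, JUN and SOX11. Among the products of this program are proteins that build the growth cone, the motile tip of a growing axon, and that keep its microtubules dynamic. Gap43 and Basp1 encode membrane-bound growth cone proteins that organise actin, Tubb3 encodes the neuronal class III beta-tubulin, Stmn2 and Stmn4 encode stathmins that destabilise microtubules, Flrt3 encodes a cell surface protein for adhesion and axon guidance, and Sprr1a encodes a small proline-rich protein best known from skin and induced in axotomised neurons.

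The naïve, day 7 and day 14 libraries held 3748, 3281 and 4908 barcodes, of which 3152, 2682 and 3828 passed the limits of 500 genes or more and 20% mitochondrial UMIs or less. A UMI (unique molecular identifier) marks 1 captured mRNA molecule, so PCR copies are counted once. Between 1 and 6 barcodes were shared by a pair of libraries. Each cell was given to 1 of 8 classes from fixed marker genes that include no member, and 119, 135 and 136 cells were neuron-like. All 8 neuron markers were higher in the neuron-like cells than in the other cells of each library, by at least 39.2-fold. These markers also set the class, so this is no separate check of identity. The median marker was found in 96.2%, 73.3% and 94.5% of naïve, day 7 and day 14 neuron-like cells. The least common marker was found in 82.4%, 59.3% and 91.2% of these cells. The depth of these cells differed, since the median neuron-like cell had 72275 UMIs when naïve, 5633 at day 7 and 81746.5 at day 14. At day 7, 78 of the 135 neuron-like cells had under 10000 UMIs, against 12 in the naïve library and 18 at day 14. The satellite glial gene Fabp7 was also higher in the injured neuron-like cells, at 217 CPM (counts per 1000000 UMIs) naïve, 387.0 CPM at day 7 and 338.3 CPM at day 14. Its median cell was at 41.5, 681.2 and 239.5 CPM, and at day 7 it stood at 963.7 CPM in shallow and 364.4 CPM in deeper cells. The part of glial RNA in the members' values was not tested, and the members are also given by depth.

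On mouse chromosome 3 (GRCm38/mm10, GENCODE vM21), Sprr1a spans chr3:92483952-92485895 on the minus strand and Stmn2 spans chr3:8509360-8561606 on the plus strand. Gap43 lies at chr16:42248442-42340651 (minus), Basp1 at chr15:25363277-25413764 (minus), Tubb3 at chr8:123411424-123422015 (plus), Stmn4 at chr14:66344296-66361680 (plus) and Flrt3 at chr2:140650914-140671469 (minus). Tubb3 is overlapped on its own strand by the gene model Gm20388, so its count is uncertain where the models share sequence, and Flrt3 lies inside Macrod2 on the opposite strand. RefSeq promoter windows (GRCm38.p6, 250 bases before the start of transcription, without bases inside the GENCODE gene) were found for 4 members, with 236 bases for Sprr1a, 121 for Tubb3 and 250 each for Flrt3 and Basp1. Gap43, Stmn2 and Stmn4 had no entry. Each was searched on both strands for the AP-1 motif TGANTCA, which JUN and ATF3 dimers can bind, and for the CRE motif TGACGTCA, and a match to one cannot be a match to the other. The Sprr1a window held 2 AP-1 matches, and the windows of Flrt3, Basp1 and Tubb3 held 0. Of 32851 mouse promoter windows of 250 bases, 6.75% held an AP-1 match and 1.55% a CRE match, and 0 of the 4 members held a CRE match. The Sprr1a window is shown with its matches in capitals, beginning at -146 and -116 from the RefSeq start, and it leaves out the 14 bases next to that start. The Flrt3 window is shown beside it because Flrt3 had the next largest difference at day 7 and no match.
Sprr1a, chr3:92485896-92486131, minus strand: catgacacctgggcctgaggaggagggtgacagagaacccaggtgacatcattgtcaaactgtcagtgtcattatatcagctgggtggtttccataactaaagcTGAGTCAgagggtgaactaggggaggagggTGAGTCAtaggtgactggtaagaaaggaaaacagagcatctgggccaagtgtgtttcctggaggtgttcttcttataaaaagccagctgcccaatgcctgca
Flrt3, chr2:140671477-140671726, minus strand: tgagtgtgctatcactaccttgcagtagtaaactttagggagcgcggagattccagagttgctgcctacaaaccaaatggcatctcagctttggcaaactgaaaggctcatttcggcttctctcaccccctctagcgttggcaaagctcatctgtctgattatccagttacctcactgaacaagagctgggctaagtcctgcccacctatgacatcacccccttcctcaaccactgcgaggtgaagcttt
A match is a description of the letters in the window and not of binding.

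Sprr1a, the small proline-rich protein gene, was close to absent from naïve neuron-like cells and abundant after injury. Its summed level was 7.18 CPM (61 UMIs) in naïve mice, 617.7 CPM (4009 UMIs) at day 7 and 273.7 CPM (3459 UMIs) at day 14. The naïve value came almost entirely from 1 cell, which held 58 of the 61 UMIs. The log2 ratio of CPM over the naïve library was 6.43 (interval 6.06 to 6.82) at day 7 and 5.25 (4.89 to 5.64) at day 14. Cells differed widely at both times, with single cells of up to 8883 CPM at day 7 and 4772 CPM at day 14 beside cells without a Sprr1a UMI. The log2 ratios rest on the low naïve count, and 1 naïve cell sets most of it.

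Flrt3, the surface adhesion and guidance gene, was also higher in both injured libraries. Its summed level in neuron-like cells was 41.1 CPM in the naïve library, 211.8 CPM at day 7 and 168.6 CPM at day 14. These levels gave log2 ratios over naïve of 2.37 (2.20 to 2.54) and 2.04 (1.87 to 2.20). The median neuron-like cell went from 0 CPM in the naïve library to 13.5 and 26.3 CPM, and the highest cell from 911 to 1730 and 1278 CPM.

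The growth cone membrane genes Gap43 and Basp1 differed from each other. Gap43 stood at 279.3, 898.9 and 1213 CPM in the naïve, day 7 and day 14 libraries, with log2 ratios over naïve of 1.69 (1.62 to 1.76) and 2.12 (2.06 to 2.18). The median cell held 37.8, 496.5 and 777.9 CPM of Gap43. Basp1 stood at 636.7, 952.3 and 865.0 CPM, and its log2 ratios were 0.58 (0.53 to 0.63) and 0.44 (0.39 to 0.49). Both genes were thus lowest in the naïve library, and the Gap43 difference passed 2-fold whereas that of Basp1 did not.

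Among the microtubule genes, Stmn4 differed most and Tubb3 and Stmn2 least. Stmn4 was at 26.7 CPM in the naïve library, 88.7 CPM at day 7 and 103.2 CPM at day 14, with log2 ratios of 1.73 (1.51 to 1.96) and 1.95 (1.75 to 2.16). Tubb3 was at 1867, 2962 and 3388 CPM, with log2 ratios of 0.67 (0.64 to 0.70) and 0.86 (0.83 to 0.89). Stmn2 was at 1822, 2494 and 2493 CPM, with log2 ratios of 0.45 (0.42 to 0.48) at both times. Tubb3 and Stmn2 were found in almost every neuron-like cell of each library, whereas Stmn4 was found in 33 of 119, 46 of 135 and 71 of 136 cells.

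**Figure D1:**
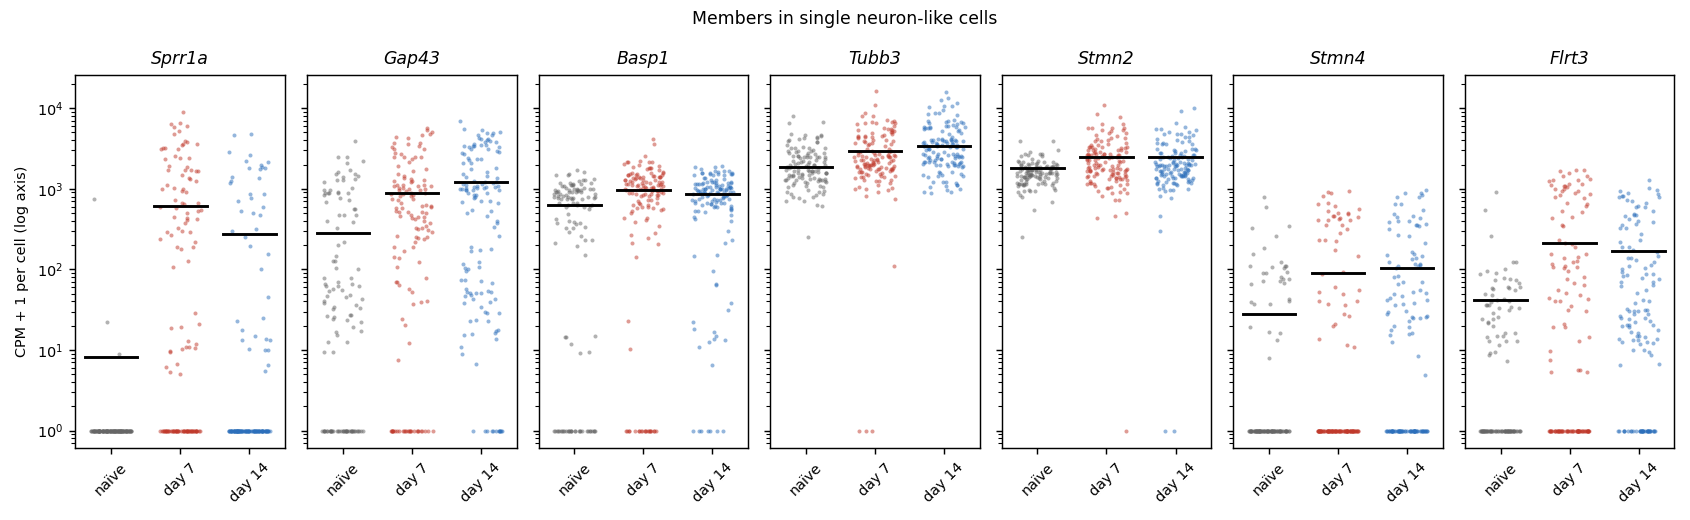
Each point is 1 neuron-like cell of the naïve (grey), day 7 (red) or day 14 (blue) library, the y axis is its CPM plus 1 on a log axis, and the black line is the CPM summed over all cells of the library plus 1. Sprr1a has 3 naïve cells above the baseline, whereas nearly all cells lie in 1 band for Tubb3 and Stmn2, with 3 day 7 cells at the Tubb3 baseline and 1 day 7 and 2 day 14 cells at the Stmn2 baseline.

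With 1 CPM added to each level, 4 of the 7 members were at least 2-fold higher at day 7 than in the naïve library and 0 were at least 2-fold lower. Over all 11106 genes with at least 50 UMIs, 1.9% were at least 2-fold higher and 0.756% at least 2-fold lower. At day 14 the same 4 members (Sprr1a, Flrt3, Stmn4 and Gap43) were at least 2-fold higher and 0 were lower, against 3.38% and 0.66% of 11811 genes. The median log2 ratio of the members was 1.68 at day 7 and 1.91 at day 14, and that of all genes was 0.02 and 0.08. Sprr1a ranked 1 of all genes at both times. At day 7, Flrt3 ranked 33, Stmn4 62 and Gap43 63, and Tubb3, Basp1 and Stmn2 ranked 523, 663 and 1019. At day 14, Gap43 ranked 49, Flrt3 61 and Stmn4 71, and Tubb3, Stmn2 and Basp1 ranked 571, 1648 and 1710. Both comparisons share the naïve library, so a low or high naïve value of a gene enters both. Weighted to the naïve mix of neuron types, the log2 ratios were lower for Gap43, at 1.07 and 1.12, and for Stmn4, at 1.23 and 1.14, and 4 members passed 2-fold.

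**Figure D2:**
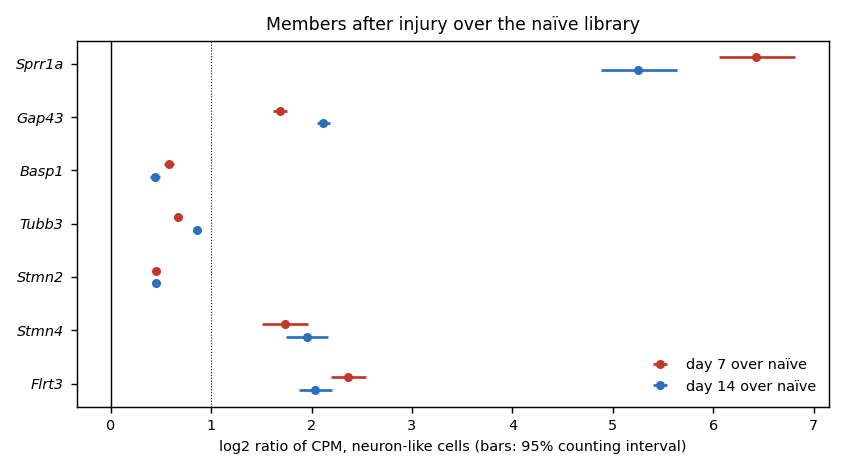
Points are log2 ratios of summed CPM in neuron-like cells at day 7 (red) and day 14 (blue) over the naïve library, bars are 95% counting intervals, the solid line marks no difference and the dotted line a 2-fold one. Sprr1a lies far to the right of the other 6 genes, and Basp1, Tubb3 and Stmn2 lie between 0 and 1 at both times.

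Between the injured libraries the members went different ways. Sprr1a was the only member at least 2-fold lower at day 14 than at day 7, with a log2 ratio of -1.17 (-1.24 to -1.11), and 0.273% of 11705 genes were as far down. Sprr1a ranked 11684 of these genes from the highest. No member was at least 2-fold higher, against 1.04% of genes. Flrt3 had a log2 ratio of -0.33 (-0.43 to -0.23) and Basp1 of -0.14 (-0.18 to -0.09). Gap43 was higher at day 14 by 0.43 (0.39 to 0.48), Stmn4 by 0.22 (0.08 to 0.36) and Tubb3 by 0.19 (0.17 to 0.22) on the log2 scale. For Stmn2 the interval of the log2 ratio, -0.03 to 0.03, included 0. Weighted to the naïve mix of neuron types, the log2 ratio turned for Tubb3, to -0.00712, and for Stmn4, to -0.0915, and it was 0.05 for Gap43. With stricter limits on cells (1000 genes or more, 10% mitochondrial UMIs or less), 58 day 7 neuron-like cells were left and the Sprr1a ratio was -0.34.

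The share of cells with a UMI depends on depth, so each neuron-like cell was also thinned. A Sprr1a UMI was found in 3 of 119 naïve cells (2.52%, interval 0.52 to 7.19), 79 of 135 at day 7 (58.5%, 49.7 to 66.9) and 42 of 136 at day 14 (30.9%, 23.2 to 39.4). In endothelial-like cells, which should lack the gene, the shares were 0 of 302, 4 of 216 (1.85%) and 7 of 337 (2.08%), at median depths of 3980, 5084 and 5967 UMIs. The 0 of 302 allows a share of up to 0.993%. Thinned to 2000 UMIs, with 117, 103 and 130 cells deep enough, the expected shares in neuron-like cells were 0.719%, 32.1% and 17.9%. Thinned to 10000 UMIs, with 107, 57 and 118 cells, they were 1.20%, 22.4% and 22.4%. The share of Sprr1a cells was thus higher at day 7 than at day 14 at the lower depth and equal to 3 digits at the higher one, where 57 day 7 cells entered. The cells entering also differed between these depths. Thinned to 2000 UMIs, cells with at least 10000 UMIs gave 18.5% at day 7 and 17.0% at day 14. The shallower cells gave 48.9% at day 7 (46 cells) and 26.5% at day 14 (12 cells).

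For Gap43, Flrt3, Stmn4 and Basp1 the thinned shares were lower in naïve than in injured libraries. Thinning also leaves out the 78 shallow day 7 cells, and without them the unthinned shares at day 7 and day 14 were 75.4% and 80.5% for Flrt3 and 52.6% and 58.5% for Stmn4. Gap43 would be found in 44.7%, 64.9% and 73.4% of naïve, day 7 and day 14 neuron-like cells thinned to 10000 UMIs, against 66.4%, 80.0% and 91.2% unthinned. For Flrt3 the thinned shares were 17.5%, 41.7% and 44.0% (44.5%, 55.6% and 72.8% unthinned), and for Stmn4 16.6%, 32.2% and 35.2% (27.7%, 34.1% and 52.2% unthinned). Basp1 was at 71.1%, 82.5% and 86.3% thinned and at 74.8%, 85.2% and 94.9% unthinned. In endothelial-like cells the unthinned shares ran from 1.66% to 12.8% for Gap43, from 0.331% to 2.78% for Flrt3, from 0.993% to 7.42% for Basp1 and up to 1.19% for Stmn4, which had 0 of 302 naïve and 0 of 216 day 7 cells (limits of 0.993% and 1.39%). Tubb3 and Stmn2 stood between 97.8% and 100% of neuron-like cells unthinned. Thinned to 10000 UMIs they stood at 99.9966% or more in each library, too near the ceiling to compare. Their share in endothelial-like cells reached 24.6% and 22.6% at day 14.

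Neuron-like cells were split into 5 types by fixed markers: large-diameter (Nefh, Pvalb), non-peptidergic (Mrgprd), peptidergic (Tac1, Calca), C-LTMR (C-fibre low-threshold mechanoreceptors, Th and Slc17a8) and Sst-type (Sst, Nppb). The mix differed between libraries, with 32 of 119 naïve, 10 of 135 day 7 and 12 of 136 day 14 neuron-like cells of the C-LTMR type (26.9%, 7.41% and 8.82%) and 34, 27 and 63 of the peptidergic type. Non-peptidergic cells made up 33.6%, 47.4% and 20.6%, at median depths of 123540, 4255 and 138382 UMIs. Of the 64 non-peptidergic cells at day 7, 17 had at least 10000 UMIs. The part of depth in the mix and in the levels by type was not tested. At day 7, 21 cells (15.6%) had no type, with a median of 1377 UMIs. Whether the type markers themselves differ after injury was not tested.

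Peptidergic cells, like the large-diameter cells described further on, went from few UMIs to high levels of Flrt3 and Sprr1a. Their Flrt3 level was 7.14 CPM (10 UMIs) in the naïve library, 353.2 CPM at day 7 and 205.7 CPM at day 14, with log2 ratios of 5.63 (4.74 to 6.70) and 4.85 (3.96 to 5.91). Sprr1a had 0 UMIs in the 34 naïve peptidergic cells, where 3 counts would be 2.14 CPM. It stood at 952.3 and 336.7 CPM after injury, 445 and 157 times the level of 3 counts. The lower bounds of its log2 ratios were 8.50 and 7.00, and 1 cell held 46.3% of the day 7 and 30.2% of the day 14 UMIs. Gap43 was already at 1066 CPM in naïve peptidergic cells and stood at 1986 and 2059 CPM after injury, log2 ratios of 0.90 (0.81 to 0.99) and 0.95 (0.87 to 1.03). Stmn2 in these cells went from 1504 to 2847 and 2997 CPM, log2 ratios of 0.92 and 0.99, above its 0.45 over all neuron-like cells.

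In non-peptidergic cells (40, 64 and 28) Basp1 was at 1004 CPM before injury and at 1153 and 989.2 CPM after it. Gap43 was low there, at 106.2, 173.9 and 194.8 CPM, and 1 cell held 56.4%, 57.1% and 48.6% of those UMIs. Sprr1a in these cells stood at 0.51, 163.5 and 160.6 CPM, and 1 cell held 76.6% of the day 7 and 99.02% of the day 14 UMIs. Stmn4 likewise sat almost wholly in 1 non-peptidergic cell, which held 96.6%, 88.8% and 81.8% of its UMIs in the 3 libraries.

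C-LTMR cells held the lowest level of the 5 types for each of the 7 members at day 7 and at day 14, in 10 and 12 cells. Their Sprr1a level was 0.41, 5.41 and 1.38 CPM, from 1, 5 and 2 UMIs. Flrt3 was at 9.501, 20.6 and 14.5 CPM, and Basp1 at 119.8, 223.0 and 152.1 CPM. Gap43 was at 43.8 CPM in the naïve library, 88.8 CPM at day 7 and 29.7 CPM at day 14, so that its day 14 log2 ratio was -0.56 (-1.10 to -0.03). This direction rested on 1 of the 32 naïve cells, which held 91 of the 106 Gap43 UMIs. Without it the naïve level was 6.53 CPM and the day 14 log2 ratio 2.19 (1.31 to 3.14).

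Large-diameter cells were few (5, 7 and 10) and carried the highest Sprr1a level of the 5 types at both times. It was 3504 CPM at day 7 and 685.3 CPM at day 14, against 0 UMIs in the 5 naïve cells. Those levels were 131 and 25.6 times that of 3 naïve counts (26.8 CPM), and the lower bounds of the log2 ratios were 6.73 and 4.37. At day 7, 1 cell held 48.6% of the Sprr1a UMIs and at day 14 58.4%. Gap43 in these cells stood at 35.7 CPM (4 UMIs), 2130 and 1668 CPM. Basp1 had 0 UMIs in the naïve cells and stood at 890.7 and 808.1 CPM, 33.3 and 30.2 times the level of 3 counts. The lower bounds of its log2 ratios were 4.75 and 4.61, and 1 cell held 70.3% of the day 7 and 37.0% of the day 14 UMIs. Flrt3 stood at 17.8 CPM (2 UMIs), 517.0 and 418.3 CPM, log2 ratios of 4.86 (2.98 to 7.91) and 4.55 (2.68 to 7.60), and 1 cell held 51.8% and 41.3% of the injured UMIs. In Sst-type cells (8, 6 and 19), Gap43 stood at 542.3, 1164 and 1718 CPM. The Sst-type Sprr1a values of 88.6, 913.6 and 381.6 CPM rested on 1 cell for 100%, 96.7% and 36.0% of the UMIs.

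**Figure D3:**
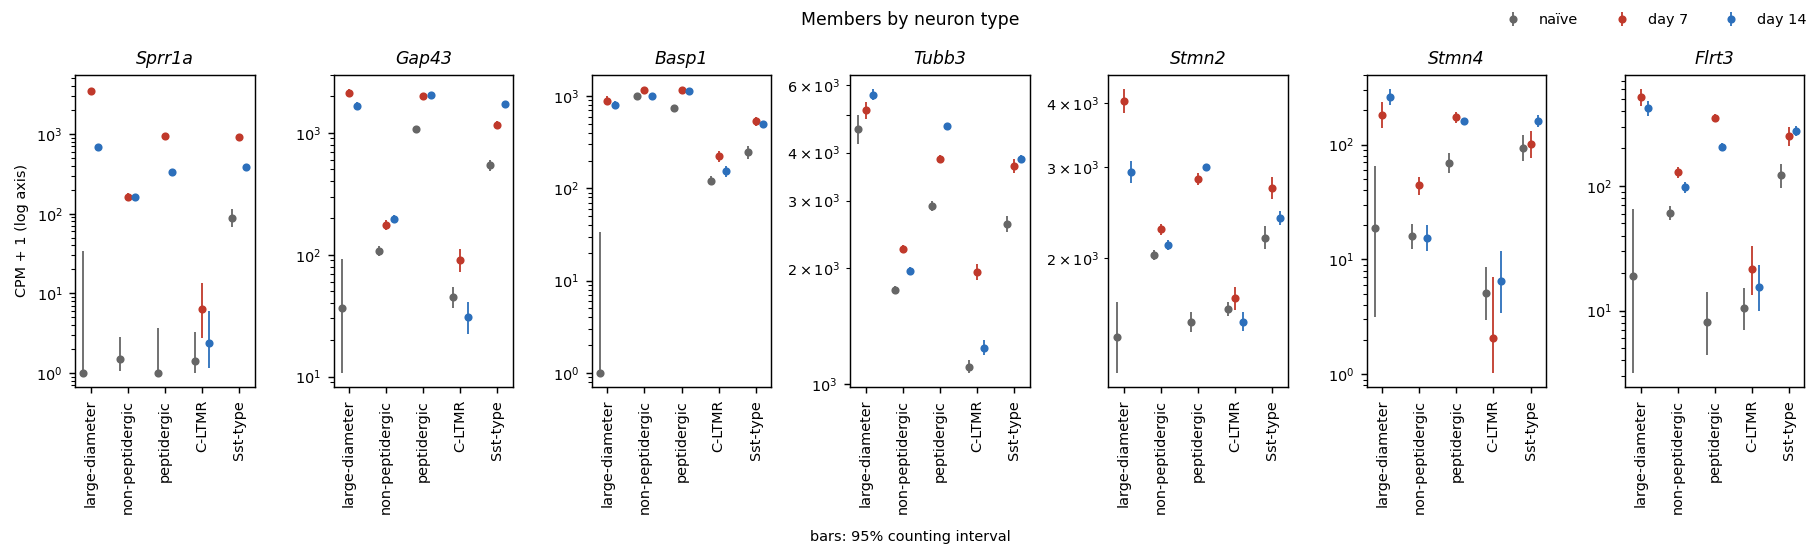
Points are the summed CPM plus 1 of each member in 5 neuron types of the naïve (grey), day 7 (red) and day 14 (blue) libraries on a log axis whose range differs between panels, and bars are 95% counting intervals. Flrt3 and Sprr1a stand far above their naïve points in peptidergic cells, and the day 7 and day 14 points of C-LTMR cells are the lowest of their colour in every panel.

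Neuron-like cells with at least 10000 UMIs were thinned to 10000 and split by whether a Sprr1a UMI remained. A Sprr1a UMI remained in 1 of 107 naïve cells, 13 of 57 at day 7 and 28 of 118 at day 14. Before thinning, 3, 27 and 38 of these cells held one, so some cells counted as without Sprr1a had held a UMI of it. Cells of a library share their source, so the comparison is a description of that library. The sides differed in neuron type: at day 14, 15 of 28 cells with Sprr1a were peptidergic and 0 were C-LTMR, against 39 and 12 of 90 without it. At day 7, 3 of 5 large-diameter cells had Sprr1a, against 1 of 9 C-LTMR cells, and that C-LTMR cell held 1 UMI of it. In all, 2 of the 13 day 7 and 4 of the 28 day 14 cells with Sprr1a held 1 UMI of it after thinning. The part of free RNA in such cells was not tested. At day 7, cells with Sprr1a held 29.5 Gap43 UMIs per cell and cells without it 5.05, a ratio of 5.85 (4.95 to 6.94). At day 14 the values were 32.9 and 6.29, a ratio of 5.23 (4.71 to 5.82). Flrt3 had ratios of 12.5 (8.03 to 20.1) at day 7 and 8.52 (6.24 to 11.8) at day 14, and all 13 day 7 cells with Sprr1a had at least 1 Flrt3 UMI. Stmn4 had ratios of 8.80 (4.74 to 17.2) and 13.3 (8.75 to 20.9).

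The members with the smaller differences over the naïve library also differed less between these cells. Tubb3 was higher in cells with Sprr1a by 2.09-fold (1.90 to 2.31) at day 7 and 2.53-fold (2.38 to 2.68) at day 14. Stmn2 was higher by 2.53-fold (2.26 to 2.83) and 2.08-fold (1.92 to 2.25). For Basp1 the ratio was 1.21 at day 7, with an interval of 0.98 to 1.48 that included 1, and 1.72 (1.51 to 1.96) at day 14. Within peptidergic cells alone (4 with and 17 without at day 7, 15 and 39 at day 14), the ratios were 4.62 (3.74 to 5.71) and 3.08 (2.71 to 3.49) for Gap43, 9.84 (5.63 to 17.8) and 8.70 (5.56 to 14.1) for Flrt3 and 6.54 (3.10 to 14.3) and 6.93 (4.40 to 11.2) for Stmn4. For Basp1 they were 0.89 (0.60 to 1.28) and 1.58 (1.32 to 1.88).

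The transcription factor genes Atf3, Sox11 and Jun, which mark injured neurons, followed the same split. Atf3 was higher in cells with Sprr1a by 12.1-fold (7.37 to 20.7) at day 7 and 20.6-fold (12.3 to 36.7) at day 14, Sox11 by 10.6-fold (7.96 to 14.2) and 13.1-fold (10.4 to 16.8), and Jun by 2.49-fold (1.57 to 3.90) and 2.57-fold (1.89 to 3.49). Of 6 neuron genes used to follow free RNA, Snap25 had ratios of 0.53 and 0.67, Nefl of 0.83 and 0.69, Nefm of 0.96 and 0.62, Prph of 1.03 and 1.06, Scg2 of 0.33 and 0.39 and Uchl1 of 1.29 and 1.23 at day 7 and day 14. None of the 6 was as much higher in cells with Sprr1a as Gap43, Flrt3, Stmn4, Tubb3 or Stmn2.

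Cells without a Sprr1a UMI after thinning were close to naïve cells without one in some members and not in others. Some of these cells held Sprr1a before thinning, and the part of such cells in these values was not tested. Stmn4 stood at 0.32, 0.34 and 0.31 UMIs per 10000 in naïve, day 7 and day 14 cells without Sprr1a, with overlapping intervals. Gap43 stood at 3.54 (3.19 to 3.91), 5.05 (4.40 to 5.75) and 6.29 (5.78 to 6.83). Flrt3 stood at 0.28 (0.19 to 0.40), 0.59 (0.39 to 0.87) and 0.63 (0.48 to 0.82). Tubb3 stood at 20.2 (19.4 to 21.1), 23.9 (22.5 to 25.4) and 27.2 (26.2 to 28.3). Basp1 stood at 5.92 (5.46 to 6.40), 8.39 (7.55 to 9.29) and 7.34 (6.80 to 7.93), and Stmn2 at 16.6 (15.8 to 17.4), 17.0 (15.8 to 18.2) and 18.5 (17.6 to 19.4). The makeup of neuron types in these cells differed between libraries too, and its part in these differences was not tested. Single cells also weighed on these values. At day 7, the top cell for each gene held 58 of 222 Gap43, 11 of 26 Flrt3 and 7 of 15 Stmn4 UMIs in the 44 cells without Sprr1a. In the naïve library the top cell held 35 of 375, 6 of 30 and 8 of 34. At day 14 the top cell held 36 of 566, 12 of 57 and 9 of 28. The levels without the top cells were not computed.

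**Figure D4:**
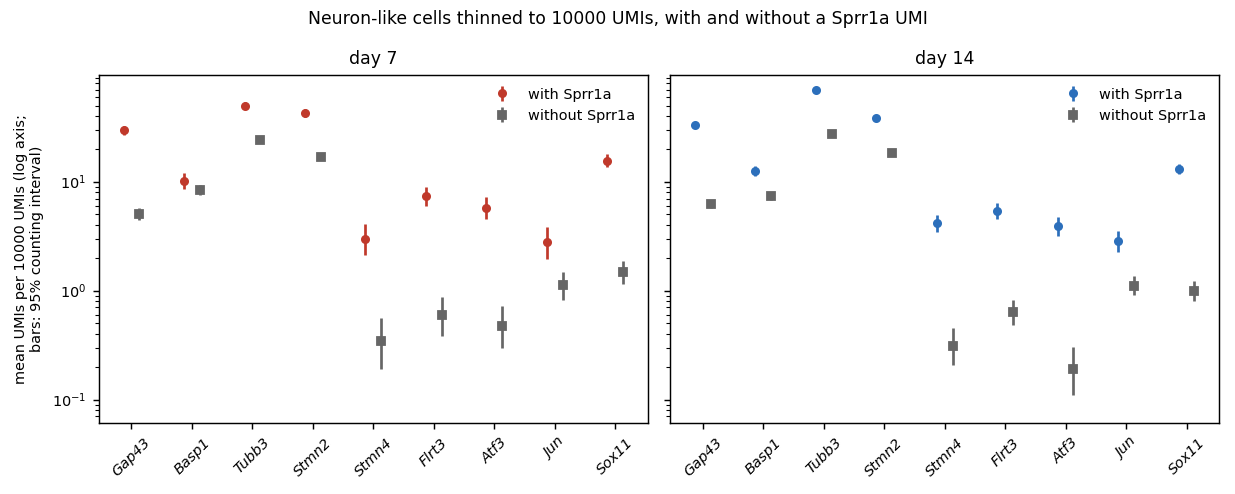
Points are mean UMIs per 10000 in day 7 (left) and day 14 (right) neuron-like cells, on a log axis with 95% counting intervals. Coloured circles are cells with a Sprr1a UMI after thinning and grey squares are cells without one after thinning. Circles lie above squares for every gene shown, by the least for Basp1 at day 7, where the intervals overlap.

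The 1 naïve cell with most of the naïve Sprr1a UMIs was of the Sst-type and had 76863 UMIs in all. It held 58 Sprr1a, 300 Gap43, 70 Flrt3 and 61 Stmn4 UMIs, and with them 20.1% of the Flrt3 and 26.9% of the Stmn4 UMIs of all naïve neuron-like cells. It also held 42 Atf3 UMIs, 40.8% of the naïve total, and 111 Sox11 UMIs. Without this cell, the log2 ratio of Sprr1a with 1 CPM added was 8.83 at day 7 and 7.66 at day 14, against 6.24 and 5.07 with it. The ratio of Flrt3 was 2.64 and 2.31 without the cell, and that of Stmn4 2.11 and 2.33. Another naïve cell, non-peptidergic with 94533 UMIs, was kept in these ratios. It held 234 Gap43, 56 Stmn4, 51 Flrt3 and 2 Sprr1a UMIs.

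Shallow and deep neuron-like cells at day 7 had overlapping intervals of summed CPM for Sprr1a, Gap43, Stmn4, Stmn2 and Basp1 but not for Flrt3 and Tubb3. Sprr1a was at 710.5 CPM (608.9 to 824.3) in the 78 cells with under 10000 UMIs and at 614.0 CPM (594.8 to 633.8) in the 57 deeper cells. The spread over cells differed. Sprr1a was found in 66.7% of shallow cells (median 412.9 CPM) and 47.4% of deeper cells (median 0 CPM). Flrt3 went the other way, with 41.0% (median 0 CPM) and 75.4% (median 39.3 CPM). The part of free neuron RNA in the shallow neuron-like cells was not tested. Gap43 was at 845.3 and 901.0 CPM, Stmn4 at 89.8 and 88.7 CPM and Flrt3 at 302.2 (237.3 to 379.4) and 208.3 CPM (197.1 to 219.9). Tubb3 was at 2630 (2431 to 2841) and 2975 CPM (2933 to 3018), Basp1 at 1090.3 and 946.9 CPM and Stmn2 at 2385 and 2498 CPM. Cells that the markers placed in no class also held members at day 7, with Sprr1a at 130.9 CPM in 42 of 199 cells, against 0 UMIs in 223 naïve cells and 2 UMIs in 267 day 14 cells. Tubb3 in these unassigned cells was at 78.0, 424.2 and 103.4 CPM.

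Outside neuron-like cells, members were in most classes not clearly above a level set for free neuron RNA, the RNA that leaks from neurons into all droplets. That level was set from 6 neuron genes (Snap25, Nefl, Nefm, Prph, Scg2 and Uchl1). A member was counted as above it where the lower bound of its observed over expected UMIs passed 2. Of 147 combinations of member, class and library, 16 were above it. Sprr1a, Tubb3, Stmn2 and Stmn4 had 0 such combinations of 21 each. The markers of the classes named here also set those classes, so their levels are no separate check of identity. They were higher inside than outside the class in each library, with few exceptions. Those were 1 of 7 SGC markers at day 7 and at day 14 and 1 of 6 non-myelinating Schwann markers at day 14. Some markers were rare in their class, such as Gfap in 13.1% of naïve non-myelinating Schwann-like cells and Dpt in 2.38% of naïve fibroblast-like cells. The nearest for Sprr1a was in non-myelinating Schwann-like cells at day 7, where 28 UMIs in 9 of 65 cells were 2.73 times the expected number (1.74 to 4.15).

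Flrt3 accounted for 11 of the 16 combinations. In satellite glial cell (SGC)-like cells, the glia that wrap the neuronal cell body, it stood at 37.99 CPM when naïve, 38.1 CPM at day 7 and 60.0 CPM at day 14, 69.8, 10.7 and 19.4 times the level expected from free RNA. A Flrt3 UMI was found in 18.6% (15.9 to 21.4), 21.3% (17.8 to 25.03) and 32.3% (28.9 to 35.8) of SGC-like cells, at median depths of 5263, 6966 and 6803 UMIs, against at most 2.78% of endothelial-like cells. In SGC-like cells the log2 ratio of CPM over naïve was 0.01 (-0.30 to 0.31) at day 7 and 0.66 (0.41 to 0.91) at day 14. Non-myelinating Schwann-like cells held Flrt3 at 167.5, 200.6 and 154.2 CPM, fibroblast-like cells at 33.3, 27.1 and 33.7 CPM and myelinating Schwann-like cells at 14.3, 11.6 and 19.7 CPM. The myelinating Schwann-like value at day 7 was not above the bound of 2, and the other 8 of these 9 values were. Naïve neuron-like cells, at 41.1 CPM, were thus not the naïve class with the most Flrt3.

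Basp1 was above the free RNA level in macrophage-like cells of all 3 libraries and in no other class. Its level there was 274.4 CPM (198.6 to 369.6), 283.1 CPM (251.2 to 318.0) and 232.9 CPM (204.5 to 264.2), at 33.2, 14.8 and 15.8 times the expected level. The log2 ratio over naïve, 0.05 (-0.42 to 0.54) at day 7 and -0.24 (-0.71 to 0.27) at day 14, had an interval that included 0 both times. A Basp1 UMI was found in 37.5%, 54.7% and 45.8% of macrophage-like cells, at median depths of 2152, 4315 and 3600 UMIs, against 0.993%, 3.24% and 7.42% of endothelial-like cells.

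Gap43 was above the free RNA level in non-myelinating Schwann-like cells of the naïve library and at day 14. Its level there was 97.2 CPM (57.6 to 153.7) in 84 naïve cells, 224.9 CPM (158.3 to 310.0) in 65 day 7 cells and 419.2 CPM (359.3 to 486.4) in 106 day 14 cells, at 13.4, 2.48 and 3.48 times the expected level. Its log2 ratio over naïve was 1.21 (0.36 to 2.11) at day 7 and 2.11 (1.41 to 2.90) at day 14. At day 14, 1 cell held 33.3% of the 174 UMIs, and in the naïve library 1 held 38.9% of 18. The neuron genes used for the free RNA level were also higher in this class after injury, at 178.3, 699.0 and 701.1 CPM, and their part in the Gap43 levels was not tested beyond the ratio given. Neuron-like cells had median marker scores of 0.33, 0.32 and 0.45 for this class, and its own cells had a median neuron score of 0 in each library. Whether neurons, or cells mixed with neurons, entered this class was not tested.

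**Figure D5:**
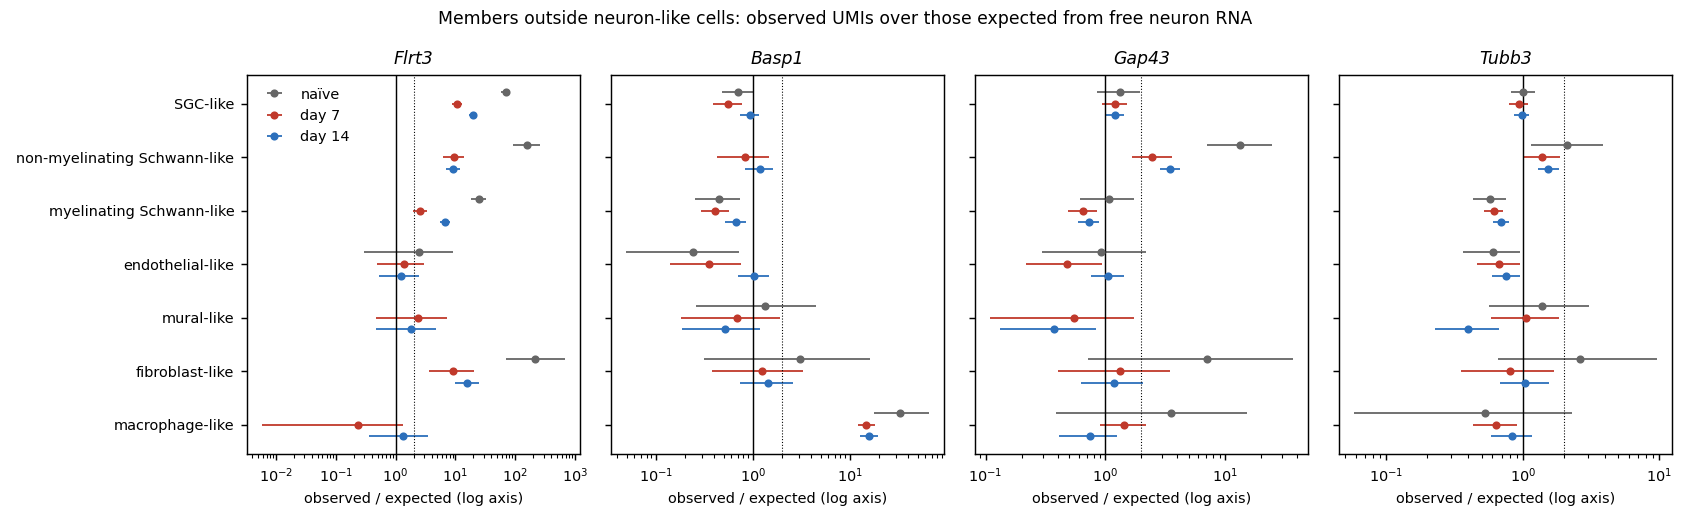
Points are the UMIs of 4 members in 7 non-neuronal classes over the number expected from free neuron RNA, on a log axis, for the naïve (grey), day 7 (red) and day 14 (blue) libraries, with 95% counting intervals. The solid line marks 1 and the dotted line 2, combinations with 0 UMIs are not drawn, and Flrt3 in glia and fibroblast-like cells and Basp1 in macrophage-like cells lie to the right of both lines, but for the interval of 1 Flrt3 point in myelinating Schwann-like cells, whereas every Tubb3 interval reaches below 2.

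Other genes of axon growth were read from a list of 62 tubulins, stathmins, microtubule, growth cone, actin, adhesion and Sprr genes, of which 54 had enough UMIs in neuron-like cells. At day 7, 4 of the 54 were at least 2-fold higher and 0 lower, and at day 14, 7 were higher and 0 lower, beside 1.9% and 3.38% of all genes higher and 0.756% and 0.66% lower. The 4 at day 7 were Tubb6, Tuba1c, Itga7 and Marcksl1, and those at day 14 were Tubb6, Tuba1c, Marcksl1 and Flrt1 with Map2, Dpysl4 and Gsn, which fell outside the rule for named genes. The median log2 ratio of the list was 0.14 and 0.22, beside 1.68 and 1.91 for the members and 0.02 and 0.08 for all genes. The 8 Sprr paralogs had too few UMIs for any to be compared, and Sprr1b, a paralog of Sprr1a, had 2 UMIs in neuron-like cells over all libraries.

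The tubulin genes Tubb6 and Tuba1c had the largest differences of the list at day 7, whereas the median log2 ratio of its 10 tubulins was 0.34. Tubb6, a beta-tubulin of low level in resting neurons, was at 1.77 CPM when naïve, 18.5 CPM at day 7 and 14.1 CPM at day 14, log2 ratios of 3.39 (2.61 to 4.27) and 3.00 (2.23 to 3.86). Tuba1c, an alpha-tubulin, was at 7.30, 28.2 and 21.4 CPM, log2 ratios of 1.95 (1.53 to 2.39) and 1.55 (1.15 to 1.97). Itga7, an integrin subunit for laminin, was at 38.7, 136.8 and 73.9 CPM, log2 ratios of 1.82 (1.64 to 2.01) and 0.93 (0.75 to 1.12). Marcksl1, which like Gap43 and Basp1 binds the membrane, was at 17.2, 44.4 and 61.9 CPM, log2 ratios of 1.37 (1.08 to 1.67) and 1.85 (1.59 to 2.11). Flrt1, a relative of Flrt3, was at 5.89, 10.8 and 18.4 CPM, log2 ratios of 0.87 (0.33 to 1.43) and 1.64 (1.19 to 2.11).

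At the other end of the list, no gene was lower by 2-fold. The adhesion gene Cntn1 was at 133.3, 83.8 and 130.5 CPM, log2 ratios of -0.67 (-0.82 to -0.52) and -0.03 (-0.14 to 0.08). Gpm6a, a growth cone membrane protein gene, had log2 ratios of -0.23 (-0.44 to -0.02) and -0.69 (-0.88 to -0.50). For the microtubule-binding gene Dcx the ratios were -0.23 (-0.62 to 0.15) and -0.46 (-0.79 to -0.13), and for the netrin receptor gene Unc5b -0.31 (-0.85 to 0.22) and -0.42 (-0.87 to 0.03).

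Across the 24 combinations of 8 classes and 3 libraries, Sprr1a was most like the neuropeptide gene Gal (Pearson r = 0.93 on log2 CPM with a pseudocount of 1, of 9672 genes) and the endopeptidase gene Ecel1 (r = 0.89). In neuron-like cells Gal stood at 43.6, 502.4 and 224.8 CPM and Ecel1 at 3.88, 54.8 and 44.9 CPM. Gap43 was most like Tubb3 (r = 0.93) and the tubulin gene Tubb2b (r = 0.92), Tubb3 was most like Ctnna2 and Stmn3 (r = 0.97 and 0.96), and Stmn2 was most like Slc45a1 and Jph3 (r = 0.98 and 0.97). Basp1 was most like Emb and Ly86 (r = 0.94 and 0.92), Stmn4 like Mrgpra2b and Flot2 (r = 0.93 both) and Flrt3 like Galnt17 and Ahnak2 (r = 0.96 and 0.91). The points share libraries, classes of unequal depth and free neuron RNA, so these values describe likeness in these libraries only.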

How the data were processed

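The series holds droplet-based single cell RNA counts (10x Genomics 3′ chemistry, v3) of L3 and L4 DRGs in 3 libraries. The deposited values are whole UMI counts for each gene and barcode, without normalization. The submitters' processing notes name Cell Ranger 3.0.2 and mm10, and the annotation and any matching of depth between libraries are not given in the sources used here. The barcode and feature files hold names only, and feature names were used as given (30934 of 31053 gene IDs matched GENCODE vM21, used for positions). Sex, age and injury were taken from the labels, since the paper's Methods name other mice.

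The members and lists were chosen with earlier results of these data known. Cells entered with 500 genes or more and mitochondrial UMIs of 20% or less. A class score was the mean of ln(1 + UMIs per 10000) over the markers, divided by its 99th percentile, and a cell took the highest class with a score of at least 0.4 and at least 3 markers. Doublets were not removed. Scrublet called 90 of 9662 cells (0.93%), of which 0 were neuron-like. A second class also scored at least 0.4 in 40, 57 and 86 of the neuron-like cells. UMIs were summed per class and scaled to CPM. Intervals were exact Poisson for a sum, Clopper-Pearson for a share and conditional binomial for a ratio. Counts of genes used log2(CPM + 1), a fold of 2 and at least 50 UMIs over the libraries compared. The text names all members, the genes of the axon list with at least 100 UMIs that ranked among the 3 highest or 3 lowest at day 7 or day 14, the 2 genes most like each member among those with at least 200 UMIs, and Atf3, Jun and Sox11. Fabp7, Map2, Dpysl4, Gsn, the naïve cell with most Sprr1a UMIs and the naïve non-peptidergic cell beside it were singled out after their values were seen. The fold rule was run on simulated Poisson sums without spread between cells, so that run cannot gauge differences between cells or pools. Alternatives covered the cell filter, doublets, the class gate, clustering, scaling, cell weights, depth, pseudocount and gene filter. Python 3.11.15, numpy 2.4.6, scipy 1.17.1, pandas 2.3.3, matplotlib 3.10.9, scanpy 1.11.5 and leidenalg 0.10.2 were used. A Seurat object named in the series text was not analysed here.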

Additional observations from a re-analysis of the deposited data

Results flagged for a closer look

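Gap43 and Stmn2 had log2 ratios at day 14 over naïve of -0.56 and -0.0805 in C-LTMR cells, against 0.88 and 0.06 in non-peptidergic cells and 0.95 and 0.99 in peptidergic cells. They are listed because the direction differs between neuron types. The difference between the types was not tested, and the day 14 library held 12 C-LTMR cells. The Gap43 direction rests on 1 naïve cell with 91 of 106 UMIs, without which the log2 ratio was 2.19. For Stmn2 the ratio without the top naïve cell was -0.0615, with an interval of -0.14 to 0.02.

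Barcodes that failed the limits on genes or mitochondrial UMIs (596 naïve, 599 at day 7 and 1080 at day 14) entered no comparison, and for 3 members both injured levels lay above the naïve level with intervals that did not overlap. Sprr1a stood at 37.1 CPM at day 7 and 9.45 CPM at day 14, against 1.61 CPM (3 UMIs) in the naïve library. Gap43 stood at 56.3 and 40.9 CPM against 21.5 CPM, and Flrt3 at 40.1 and 42.5 CPM against 21.5 CPM. Basp1, at 28.4 and 20.8 CPM against 19.8 CPM, Stmn4, at 5.42 and 3.54 CPM against 2.15 CPM, and Stmn2, at 94.3 and 62.6 CPM against 83.7 CPM, did not meet this. Tubb3 stood at 122.7 and 88.1 CPM against 133.0 CPM. Whether these UMIs came from neurons or from free RNA was not tested.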

How the results depend on the processing

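No paired analysis was possible because there was a single library for each condition. Under 17 alternatives (3 of them chosen after seeing the data: the naïve mix of neuron types, leaving out the naïve cell with most Sprr1a UMIs, and leaving out the top cell of each member), 4 members were at least 2-fold higher and 0 lower at day 7 and at day 14 over naïve each time. The count of members at least 2-fold lower at day 14 than at day 7 was 1 in 16 alternatives and 0 with limits of 1000 genes and 10% mitochondrial UMIs. Some alternatives could not change these counts of members. The limits on UMIs per gene were not applied to members, and 0 of the doublets left out were neuron-like. With the naïve mix of neuron types, the log2 ratios of day 14 over day 7 turned for Tubb3 (-0.00712, from 0.19) and Stmn4 (-0.0915, from 0.22). In C-LTMR cells the day 14 log2 ratio of Gap43 over naïve turned from -0.56 to 2.19 without 1 naïve cell, a choice also made after seeing the data, as was the split within peptidergic cells. The Sprr1a log2 ratio ran from 5.19 to 8.83 at day 7 and from 4.05 to 7.66 at day 14, lowest with a pseudocount of 10 CPM and highest without the 1 naïve cell. By the mean of per-cell CPM, Flrt3 had a day 7 log2 ratio of 3.05.

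Counts over all genes moved more. At day 7 over naïve, 211 genes were higher and 84 lower, against 697 and 646 by the mean of per-cell CPM, 66 and 10 with a pseudocount of 10 CPM, 84 and 40 with 200 UMIs or more per gene, and 373 and 147 with any UMI. There were 106 higher with the naïve mix of types and 49 lower with the stricter limits on cells. At day 14 over naïve, 399 genes were higher and 78 lower, against 83 and 17 with the pseudocount of 10 CPM and 179 and 48 with 200 UMIs or more. There were 124 higher with the naïve mix and 181 lower by the mean of per-cell CPM. At day 14 over day 7, 122 were higher and 32 lower, against 768 and 510, 14 and 9, 46 and 14, and 186 and 60 under the same first 4 settings. There were 61 higher with the naïve mix and 80 with a top class at least 1.5 times the next. The cause was not tested. Between 16 and 18 combinations passed the free RNA level under 8 alternatives, and all 16 reported were among them each time. Clusters in place of the gate made 509 cells neuron-like, 172 of them in a cluster with 151 day 7 cells. In that cluster, 70 cells were neuron-like by the gate, and 4 of the 8 neuron markers met the limits set for naming clusters. Depth limits mainly the day 7 library, where 57 neuron-like cells had at least 10000 UMIs.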
